A study of Mus musculus with 2 samples.

Results

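The cells described here carried RNA of Shh, which encodes the secreted signal Sonic hedgehog, together with RNA of Foxa2, a forkhead transcription factor. The cells were chosen by measured counts. A barcode needed at least 2000 UMIs (unique molecular identifiers, each counting 1 captured RNA molecule), 500 or more genes and no more than 10% mitochondrial UMIs, and it had to hold at least 2 UMIs of Shh, at least 1 of Foxa2 and fewer than 20 of Afp, the alpha-fetoprotein gene of liver and yolk sac. This rule took 202 of 16572 cells, 3 of 8907 at E11.5 and 199 of 7665 at E10.5. The cells were then divided by detection (at least 1 UMI) of T, the T-box factor brachyury, of Noto, a homeobox gene of the notochord, and of Epcam, an epithelial adhesion molecule. Since T, Noto, Epcam, Shh, Foxa2 and Afp chose the cells, their levels are given as descriptions.

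The study collected dorsal aorta with its surrounding tissue, and fetal liver, from C57BL/6 mouse embryos in a series on the precursors of blood stem cells. The tissues of each stage went into 1 library, made after enzymatic dissociation with the 10x Chromium 3' kit, so the tissue of origin of a cell is not marked. One library came from E11.5 embryos (12289 barcodes, 159619785 UMIs) and 1 from E10.5 embryos (10996 barcodes, 151474708 UMIs). No mutation, transgene or treatment is labelled at either stage, and how many embryos were pooled is not given in the sources used here. The kept cells had a median of 14197 UMIs at E11.5 and 16967 at E10.5. The libraries shared 37 barcodes, 17 of them among kept cells and 0 among the cells described here. With 1 library per stage there is no replicate and no test, and every 95% interval covers counting error only.

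Sonic hedgehog is made along the midline of the embryo. The notochord, a rod of vacuolated cells in a matrix sheath, expresses T, Noto, Shh and Foxa2 and induces the floor plate, the ventral midline of the neural tube, which then expresses Shh and Foxa2 itself. The floor plate guides commissural axons with secreted netrin and Slit proteins, and the gut tube and its buds express Shh and Foxa2 as an epithelium that carries Epcam.

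Most of these cells held neither the notochord genes nor Epcam. At E10.5, 173 of 199 cells (86.9%, 95% CI 81.4 to 91.3, Clopper-Pearson) lacked T, Noto and Epcam and are called T- Epcam- cells. A further 13 cells (6.53%) held T without Epcam (T+ cells), 4 (2.01%) held T and Epcam (T+ Epcam+ cells) and 9 (4.52%) held Epcam without T (Epcam+ cells). At E11.5 all 3 cells held Epcam without T. Noto had 0 UMIs in every kept cell at E10.5, so T alone defined the T+ and T+ Epcam+ cells there. The T- Epcam- cells were shallower, with a median of 9455 UMIs, against 30370 in T+ cells and 17102.5 in the 7466 other kept cells of the library. Depth can set which cells pass on Shh and Foxa2 as well as on T or Epcam. When E10.5 cells with at least 5000 UMIs were thinned to 5000 before the rule, 97.8% of those then passing it were T- Epcam-. Thinning acted on all of these genes, and the part of each was not tested.

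The label of midline and endoderm cells does not tell these sets apart. The fixed notochord markers Krt8, Krt18, Col2a1 and Sox9 were found in 12, 13, 13 and 13 of the 13 T+ cells, Nog in 12, Foxa1 in 11 and Chrd in 0. In the T- Epcam- cells the leading genes included Dcn, Fam183b, Cdh6 and Sox2. Sox2 belongs to the fixed list of the floor plate and ventral neural tube, a structure that the label does not name apart from midline. Of the 9 Epcam+ cells at E10.5, 4 lay above the 99th percentile of UMIs of their library, at 67612.6 UMIs. The sets are therefore called by the genes that defined them.

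Apela and Samd3 are shown first because, among the genes that lead the contrast of T- Epcam- with T+ cells below, they alone held a match to a searched motif within 250 bases before the annotated start. Apela, which encodes a secreted apelin receptor ligand, was higher in T- Epcam- cells, and Samd3 was higher in T+ cells. Both sequences come from RefSeq on GRCm38.p6 and are written 5' to 3' on the strand of the gene. Capitals mark the motif. Apela lies on the minus strand at chr8:65037337-65037586 and Samd3 on the plus strand at chr10:26229457-26229706.
Apela: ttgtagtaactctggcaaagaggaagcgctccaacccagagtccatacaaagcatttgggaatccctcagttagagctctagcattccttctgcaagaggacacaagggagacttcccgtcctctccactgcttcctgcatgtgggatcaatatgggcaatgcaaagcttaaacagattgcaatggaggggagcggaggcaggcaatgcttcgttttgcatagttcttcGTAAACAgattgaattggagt
Samd3: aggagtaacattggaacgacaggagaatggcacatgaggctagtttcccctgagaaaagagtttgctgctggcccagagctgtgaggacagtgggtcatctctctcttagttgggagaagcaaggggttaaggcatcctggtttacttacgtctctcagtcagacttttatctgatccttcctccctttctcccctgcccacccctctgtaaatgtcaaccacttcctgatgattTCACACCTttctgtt
The letters TGTTTAC, a forkhead core, were searched on both strands and stood in 836 of 27025 promoters (3.09%). Of the 12 genes named as higher in T- Epcam- cells, 10 had a sequence and 1 held the motif, Apela, on the strand opposite to the gene and starting 21 bases before the start site (position -21). Of the 6 genes with a sequence among those named as higher in T+ cells, 0 held it. The letters TCACACCT, part of the site bound by T-box factors, stood in 307 of 27025 promoters (1.14%), in 1 of the 6 T+ genes, Samd3, at position -15, and in 0 of the 10. The 2 motifs do not share a site here. With counts of 1 the matches are descriptions. Shh is named only.

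Shh and Foxa2 chose the cells, so their levels and ratio in each set are descriptions and not a result. T- Epcam- cells held 2 to 83 Shh UMIs per cell (median 13) and 1 to 51 Foxa2 UMIs (median 5). T+ cells held 4 to 178 Shh UMIs (median 49) and 1 to 8 Foxa2 UMIs (median 2). Summed over cells, Foxa2 had 42.6 UMIs per 100 Shh UMIs in T- Epcam- cells, against 3.83 per 100 in the 17 cells with T inside the rule. Both values leave out cells below the Foxa2 minimum of the rule.

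Cells with T were also found outside the rule, at 0 Foxa2 UMIs. Of 62 cells at E10.5 with at least 2 Shh UMIs, fewer than 20 Afp UMIs and 0 Foxa2 UMIs, 31 held T without Epcam, 7 held Epcam alone and 24 held none of the 3. These 31 T+ Foxa2- cells carried 909 Shh UMIs (1398 CPM, UMIs per 1000000 over genes other than haemoglobin and mitochondrial genes) and a median depth of 17436 UMIs. Of the 17 cells with T inside the rule, 9 had exactly 1 Foxa2 UMI, as had 21 of the 173 T- Epcam- cells. Taking the 48 T cells inside and outside together, Foxa2 came to 2.09 UMIs per 100 Shh UMIs. The 31 cells were taken at 0 Foxa2 UMIs, so adding them had to lower this value. The 24 cells with none of the 3 were not added to the T- Epcam- cells, so the 2 sides are not alike.

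**Figure D1:**
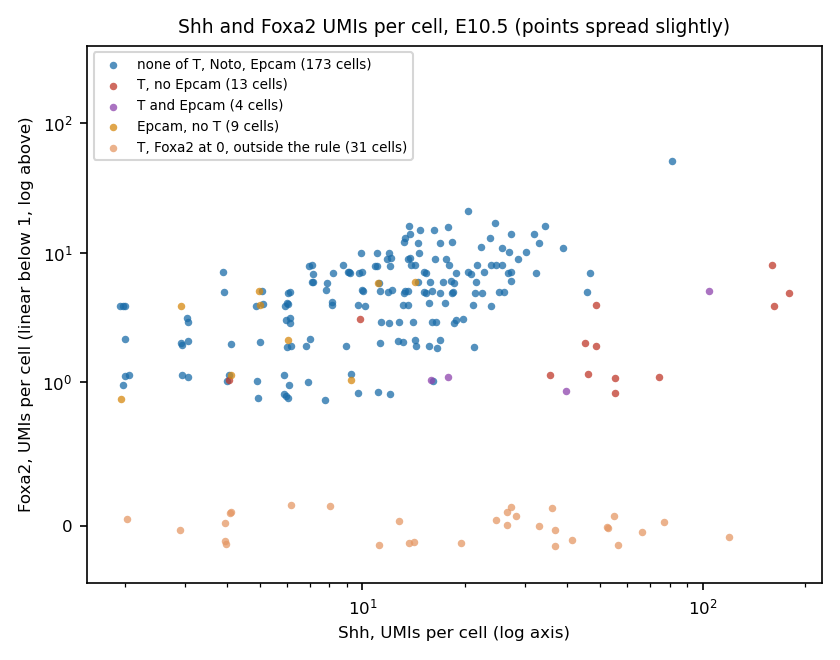
Foxa2 UMIs (y axis, linear below 1 and log above) against Shh UMIs (x axis, log) in single E10.5 cells, by set. The 173 cells with none of T, Noto and Epcam reach 51 Foxa2 UMIs. Cells with T stay at 8 or fewer at up to 178 Shh UMIs. The 31 T cells outside the rule were chosen at 0 Foxa2 UMIs. Shh and Foxa2 chose the cells, so both axes are descriptions.

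The other borders of the rule held fewer cells. At E10.5, 15 cells had 1 Shh UMI with Foxa2 (just outside), with a median of 5 Sox2 UMIs, and 8 cells had exactly 2 Shh UMIs (just inside), with a median of 6 Sox2 UMIs. The Afp limit left out 2 cells, with a median of 193883.5 UMIs. At E11.5, 11 cells had at least 2 Shh UMIs and 0 Foxa2, of which 7 held Epcam.

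Sox2, Spon1 and Ntn1, genes of the ventral neural tube, were each found in over 90% of T- Epcam- cells and stood at higher levels there than in T+ cells. Sox2, a factor of neural progenitors and foregut, ranged over 0 to 31 UMIs per T- Epcam- cell (median 7) and was detected in 168 of 173 cells. In T+ cells Sox2 was detected in 2 of 13, with 3 and 13 UMIs, both in cells above the 99th percentile of UMIs, and in 0 of the other 11. The groups overlapped through those 2 cells and the 5 T- Epcam- cells at 0.

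Sox2 summed to 565 CPM in T- Epcam- cells, against 30.0 CPM in T+ cells, a log2 ratio of 4.24 (95% CI 3.53 to 5.05). Among T+ Foxa2- cells Sox2 was detected in 2 of 31. In endothelial cells, which should lack it (277 cells with at least 3 UMIs each of Cdh5 and Pecam1, median 24868 UMIs), Sox2 was found in 3.61%. After thinning to 5000 UMIs, with 4 cells left out, Sox2 remained detectable in 90.5% of T- Epcam- cells.

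Spon1 (F-spondin), a matrix protein secreted by the floor plate, was detected in 171 of 173 T- Epcam- cells, with 1156 CPM, against 12 of 13 T+ cells, with 103 CPM (log2 ratio 3.49, 95% CI 3.101 to 3.899). Ntn1, which encodes netrin-1, was detected in 162 of 173 T- Epcam- cells with 328 CPM, against 5 of 13 T+ cells with 22.5 CPM (log2 ratio 3.87, 95% CI 3.05 to 4.83). Taken cell by cell, all 3 of Sox2, Ntn1 and Spon1 were detected in 156 of 173 T- Epcam- cells (90.2%, 95% CI 84.7 to 94.2). All 3 were detected in 5 of 9 Epcam+ cells, 2 of 13 T+ cells, 0 of 4 T+ Epcam+ cells and 1 of 31 T+ Foxa2- cells. The shares were 1.26% in the other cells and 0.361% in endothelial cells.

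The T+ cells carried keratins and cartilage-type matrix. Krt8, a keratin of simple epithelia and notochord, ranged over 0 to 139 UMIs per T+ cell (median 44) and was at 0 UMIs in 168 of 173 T- Epcam- cells, with at most 3 UMIs in the others. Its level was 3.49 CPM in T- Epcam- cells and 1382 CPM in T+ cells (log2 ratio -8.63, 95% CI -9.85 to -7.65). T+ Foxa2- cells held Krt8 in 30 of 31 cells, with a median of 15 UMIs. A Krt8 UMI was held by 2.89% of T- Epcam- cells (median 9455 UMIs) and by 9.39% of the deeper endothelial cells (median 24868 UMIs). The T- Epcam- share was not above that of cells that should lack Krt8, and depth was not matched between them.

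Car3, which encodes carbonic anhydrase 3, was detected in 13 of 13 T+ cells, from 1 to 678 UMIs with a median of 165, and in all 31 T+ Foxa2- cells, from 2 to 220 UMIs. Its level was 20.5 CPM in T- Epcam- cells, against 5131 CPM in T+ cells (log2 ratio -7.97, 95% CI -8.42 to -7.55). At least 3 of Krt8, Krt18, Col2a1 and Car3 were detected in 3 of 173 T- Epcam- cells, 13 of 13 T+ cells and 31 of 31 T+ Foxa2- cells. They were also detected in 4 of 4 T+ Epcam+ cells, 6 of 9 Epcam+ cells, 9.50% of the 7466 other cells and 3.61% of endothelial cells.

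**Figure D2:**
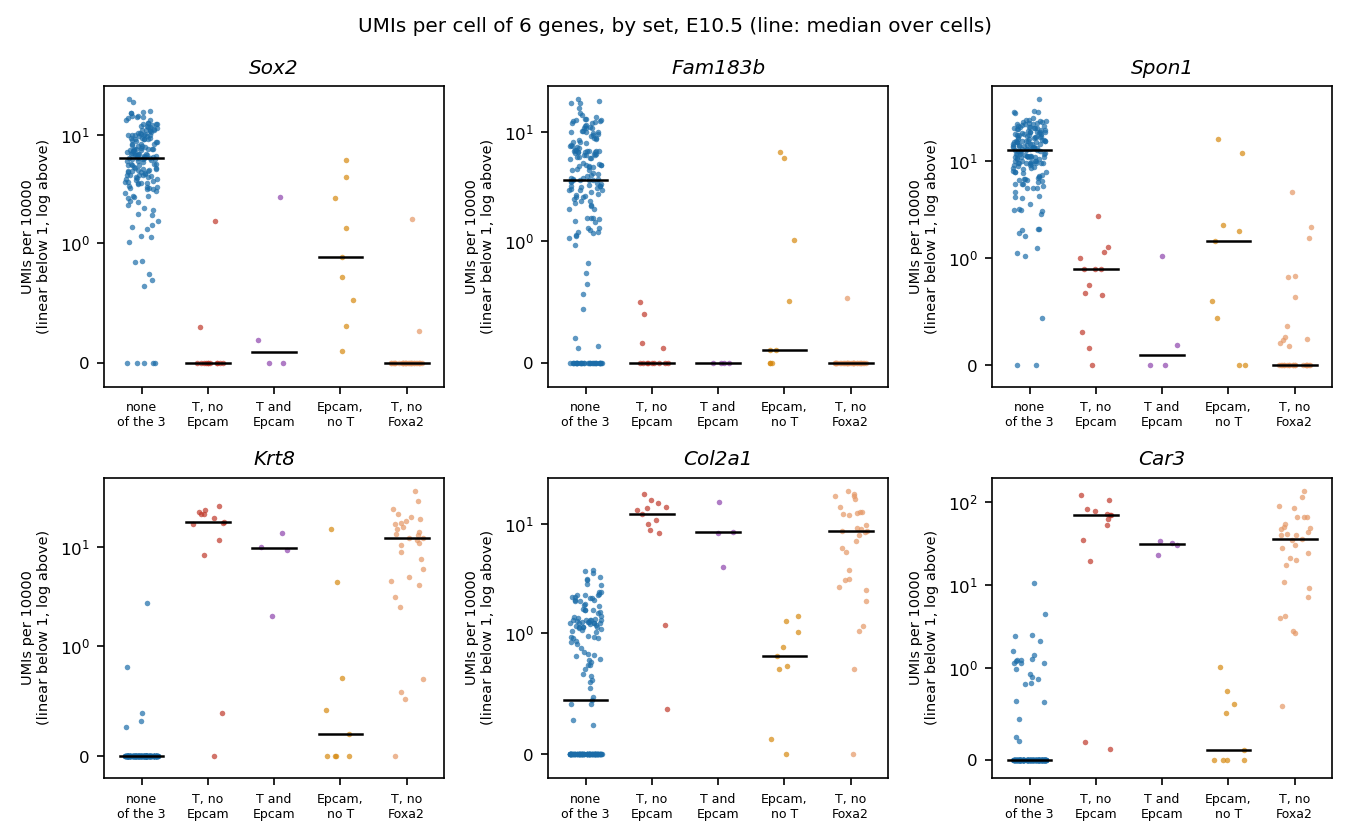
UMIs per 10000 of 6 genes (y axes, linear below 1 and log above) in single E10.5 cells of the 4 sets and of the 31 T cells with Foxa2 at 0, with a line at the median over cells. Sox2, Fam183b and Spon1 are high in the cells with none of T, Noto and Epcam, and Krt8, Col2a1 and Car3 in cells with T, with or without Foxa2.

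Across all genes, 9798 were measured between T- Epcam- and T+ cells (at least 20 UMIs over both sets). Of these, 420 (4.29%) were at least 4-fold higher and 224 (2.29%) at least 4-fold lower in T- Epcam- cells, with a median log2 ratio of 0.12. A gene at 0 UMIs in a set entered at the floor of 3 counts over the set, and its ratio is a bound. Without the 5 cells of these sets above the 99th percentile of UMIs, an alternative chosen after seeing the data, 510 (5.42%) and 181 (1.92%) of 9410 genes passed.

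In the floor plate and ventral neural tube list, 7 of 10 measured genes (16 listed) were at least 4-fold higher in T- Epcam- cells and 0 were lower, with a median log2 ratio of 3.27. Without the deep cells 5 of 10 passed and the median was 2.01, since several of these genes were then at 0 in T+ cells and were read against the floor. Nkx6-1, a ventral progenitor factor, had 68.4 CPM in T- Epcam- cells and was found in 90 of them, against 3.75 CPM in T+ cells (1 cell). Nkx2-2, a homeobox gene of the domain flanking the floor plate, was found in 45 T- Epcam- cells (30.5 CPM) and in 1 T+ cell (1.88 CPM). Ferd3l, a bHLH factor of the floor plate, was found in 40 T- Epcam- cells and 1 T+ cell, and Lmx1b in 28 T- Epcam- cells and 0 T+ cells. Olig2 and Pax6, which mark more dorsal progenitors, were found in 0 of 173 T- Epcam- cells, which allows a share of cells with a UMI of up to 2.11% and sets no limit on cells that express them.

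Among axon guidance ligands, 3 of 12 measured genes were at least 4-fold higher in T- Epcam- cells and 1 was lower, with a median of 0.65. Slit3, which encodes a repellent for commissural axons, had 134 CPM in T- Epcam- cells, against 5.63 CPM in T+ cells (log2 ratio 4.58, 95% CI 3.02 to 6.86). Its relative Slit2 had 512.5 CPM in T- Epcam- cells and 512 CPM in T+ cells (log2 ratio 0.00, 95% CI -0.19 to 0.20), with 0 to 63 UMIs per T- Epcam- cell and 2 to 59 per T+ cell. The 1 lower gene, Efnb2, had a log2 ratio of -2.28, which was -0.79 without the deep cells.

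Genes of the motile cilium were also higher in T- Epcam- cells: 4 of 11 measured genes passed and 0 were lower, with a median of 1.92 (3 of 10 and 1.51 without the deep cells). Foxj1, the regulator of motile ciliogenesis, was found in 57 of 173 T- Epcam- cells (33.1 CPM) and in 0 of 13 T+ cells, a level at least 5.89-fold higher. Fam183b, a gene of motile-cilium cells, had 386 CPM in T- Epcam- cells (0 to 29 UMIs, median 4), against 13.1 CPM in T+ cells (log2 ratio 4.88, 95% CI 3.83 to 6.20). Tppp3, a tubulin polymerisation factor, had 130 CPM in T- Epcam- cells and 5.63 CPM in T+ cells.

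Of the 10 measured genes of the notochord sheath and cartilage-type matrix list, 9 were at least 4-fold lower in T- Epcam- cells, with a median of -4.97 (9 of 10 and -5.71 without the deep cells). Col2a1, the main fibrillar collagen of cartilage and notochord sheath, ranged over 3 to 107 UMIs per T+ cell (median 32) and 0 to 16 per T- Epcam- cell (median 1). Its level was 88.9 CPM in T- Epcam- cells and 975 CPM in T+ cells (log2 ratio -3.46, 95% CI -3.70 to -3.22). Acan, which encodes aggrecan, had 0 UMIs in T- Epcam- cells and 111 CPM in T+ cells, at least 84.6-fold lower in T- Epcam- cells. The exception was Vcan (versican), with 119 CPM in T- Epcam- cells and 54.4 CPM in T+ cells.

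In the epithelial junction and keratin list 5 of 6 measured genes were at least 4-fold lower in T- Epcam- cells (median -4.27). Krt19, a further simple-epithelium keratin, had 0.872 CPM there, against 242 CPM in T+ cells, and Krt18, the partner of Krt8, had 21.4 CPM against 889 CPM. Spint2, a protease inhibitor of epithelia, had 23.5 CPM in T- Epcam- cells and 210 CPM in T+ cells.

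**Figure D3:**
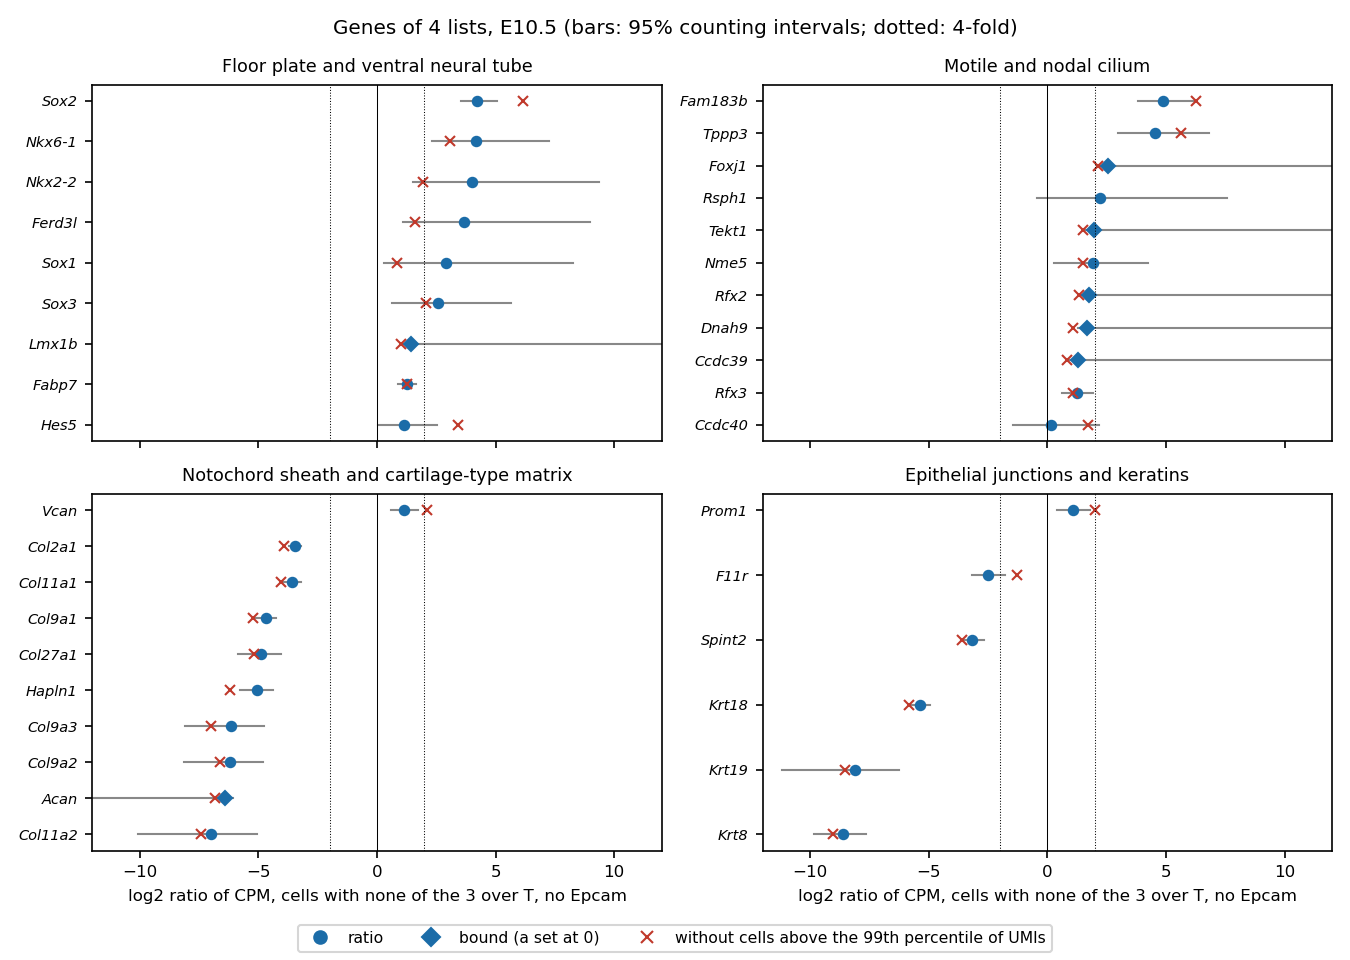
Log2 ratio of CPM (x axis), cells with none of T, Noto and Epcam over T cells without Epcam at E10.5, for measured genes of 4 lists (y axis), with 95% counting intervals, bounds as diamonds and crosses for values without cells above the 99th percentile of UMIs. The 9 floor plate genes drawn lie above 0, and 9 of 10 sheath genes and 5 of 6 epithelial genes lie beyond 4-fold below 0.

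Of 6 measured genes for Hedgehog reception and targets 0 passed 4-fold either way between these sets, with or without the deep cells. Over all measured genes 4.29% were higher and 2.29% lower in T- Epcam- cells, so 0 of 6 does not set the list apart. Of 3 measured genes for the ligands and their release 0 passed, and 1, Disp1, was lower without the deep cells. Ptch1, the receptor and target of the pathway, had 52.3 CPM in T- Epcam- cells, against 90.0 CPM in T+ cells (log2 ratio -0.78, 95% CI -1.28 to -0.27). Smo, the signal transducer, had 75.4 and 63.8 CPM in T- Epcam- and T+ cells. Disp1, needed to release the ligand, had 6.10 CPM in T- Epcam- cells and 24.4 CPM in T+ cells (log2 ratio -1.999, 95% CI -3.20 to -0.79), and a log2 ratio of -2.28 without the deep cells.

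Secreted BMP and Wnt modulators were split between the sets, with 3 of 17 measured genes at least 4-fold higher in T- Epcam- cells and 5 lower. Wnt4, a ligand, was found in 155 T- Epcam- cells (288.5 CPM) and in the 2 deep T+ cells alone (35.6 CPM). Sfrp2, a Wnt antagonist, had 124 CPM in T- Epcam- cells and 13.1 CPM in T+ cells. Nog, which encodes the BMP antagonist noggin of notochord, had 24.0 CPM in T- Epcam- cells, against 195 CPM in T+ cells (log2 ratio -3.03, 95% CI -3.52 to -2.54). Sostdc1, an antagonist of both pathways, had 0 UMIs in T- Epcam- cells and 313 CPM in 10 of 13 T+ cells.

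The leading gene higher in T- Epcam- cells by the naming rule was Dcn, the proteoglycan decorin, with 1329 CPM in T- Epcam- cells and 31.9 CPM in T+ cells (log2 ratio 5.38, 95% CI 4.70 to 6.16). Dcn is on the fixed list of mesenchyme markers. Of the 11 genes of that list 1 was at least 4-fold higher in T- Epcam- cells and 0 lower (median log2 ratio 1.22). Without the deep cells 4 of 10 measured genes were higher and 0 lower (median 1.71), namely Dcn, Twist1, Col1a1 and Prrx1. The summed level of the list was 1759 CPM in T- Epcam- cells (0 to 7952 per cell), 1329 CPM of it from Dcn, against 285 CPM in T+ cells (17.3 to 962 per cell). In the other kept cells at E10.5 the list summed to 1095 CPM, with Col3a1 its highest gene at 258.5 CPM. The part of other cell types in this result was not tested. The adhesion molecules Cdh6 (476 against 18.8 CPM), Nrcam (138 against 1.88 CPM) and Chl1 (134 against 1.88 CPM) followed, with T- Epcam- cells given first. Rfx4, a factor of neural tube patterning, had 242 CPM in T- Epcam- cells and 9.38 CPM in T+ cells, and Apela had 183 CPM and 3.75 CPM. The named gene Acta2 took 68.8% of its UMIs in T- Epcam- cells from 1 cell.

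Among genes lower in T- Epcam- cells, the leptin receptor Lepr, the galectin Lgals3 and Susd5 all had 0 UMIs there, against 188, 135 and 111 CPM in T+ cells. Samd3 had 0.436 CPM in T- Epcam- cells and 193 CPM in T+ cells (log2 ratio -8.79). Rab38, a small GTPase of lysosome-related organelles, had 1.31 CPM in T- Epcam- cells and 167 CPM in T+ cells. The chondrogenic factor Sox9 was at 141 CPM in T- Epcam- cells and 520 CPM in T+ cells, under 4-fold apart.

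All 8 measured endothelial markers were at least 4-fold lower in T- Epcam- cells (median -7.61), and this rested on 1 T+ cell. That cell had 81052 UMIs, 2 T UMIs, 4 Shh UMIs, 136 UMIs of Cdh5 and 108 of Pecam1, and it supplied 99.3% of the Cdh5 UMIs of the T+ cells and 100% of those of Pecam1. The other deep T+ cell had 100785 UMIs, 1 T UMI and 10 Shh UMIs. The other 11 T+ cells each held 9 to 67 T UMIs and 35 to 178 Shh UMIs, 20 to 139 Krt8 UMIs and 0 Sox2 UMIs. Without the 2 deep cells 1 endothelial marker was measured and 0 passed.

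Few genes differed between the 31 T+ Foxa2- cells and the 13 T+ cells. Of 7048 measured genes 26 (0.369%) were at least 4-fold higher and 47 (0.667%) lower in T+ Foxa2- cells. Of the 10 sheath genes and 6 epithelial genes measured, 0 passed either way, which at these shares does not set the lists apart. Their medians were -0.67 and -0.56, and 1 of 10 and 0 of 6 were higher at any fold in T+ Foxa2- cells. Of 8 measured endothelial markers 4 were at least 4-fold lower in T+ Foxa2- cells (median -2.19). In the mesenchyme list 5 of 10 genes were higher in T+ Foxa2- cells, where the summed level was 825 CPM, against 285 CPM in T+ cells, and its part in the result was not tested. Set against these 31 cells instead, T- Epcam- cells had 440 (4.49%) genes higher and 145 (1.48%) lower of 9801, with 8 of 10 floor plate genes and 6 of 11 cilium genes higher and 9 of 10 sheath genes lower.

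Hox genes, whose paralogue groups are expressed in order along the body axis, also differed. T- Epcam- cells held paralogue groups 1 to 9, with group 8 at 463 CPM (95% CI 436 to 492), group 9 at 255 CPM (234 to 276) and group 10 at 0. In all 13 T+ cells group 8 stood at 80.7 CPM and group 9 at 43.1 CPM, the latter in 2 cells. In the 11 T+ cells without the deep cells, groups 2 and 4 stood at 170 and 104 CPM and group 8 at 13.7 CPM. Group 9 was at 0 in all 11 cells, with an upper limit of 10.1 CPM. T- Epcam- cells without their deep cells had groups 8 and 9 at 440 and 254 CPM. The other kept cells had 202 and 91.4 CPM. The T+ Foxa2- cells held group 8 at 75.4 CPM and group 9 in 9 of 31 cells (52.3 CPM). The 4 T+ Epcam+ cells held group 9 in 4 of 4 (125 CPM). Of 22 measured Hox genes, 10 were at least 4-fold higher in T- Epcam- cells than in T+ cells (12 of 20 without the deep cells), and 0 were lower.

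**Figure D4:**
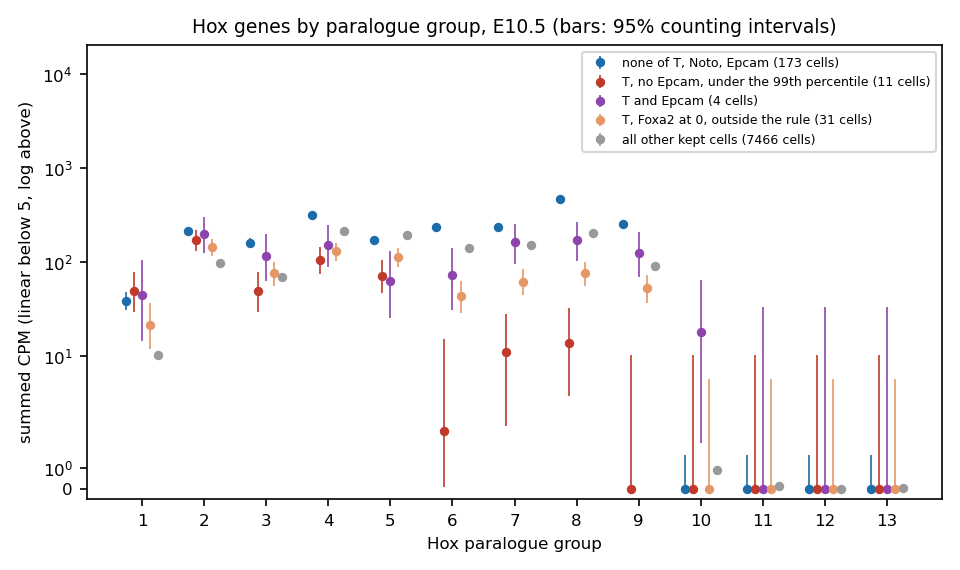
Summed CPM (y axis, linear below 5 and log above) of each Hox paralogue group (x axis) at E10.5 with 95% counting intervals, for the sets, the 31 T cells outside the rule and all other kept cells. Groups 6 to 9 are high in the 173 cells with none of T, Noto and Epcam and low in the 11 T cells under the 99th percentile of UMIs, while groups 1 and 2 are close.

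Within the T- Epcam- cells, levels were set beside single genes that the rule did not use. The 79 cells with a UMI of the proliferation gene Mki67 had 453 CPM of Sox2, against 753 CPM in the 94 cells without it (log2 ratio -0.73, 95% CI -0.89 to -0.57). Shh stood at 829 CPM with Mki67 and 1466 CPM without. These cells were chosen by a minimum of Shh and Foxa2 UMIs, which asks for a higher CPM in a shallower cell, so their Shh levels are descriptions. Cells with Mki67 were deeper, with a median of 12548 UMIs and a mean of 19390, against 8473 and 9602 without, and the part of depth in these differences was not tested.

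The 28 cells with Lmx1b had 704 CPM of Sox2, against 543 CPM in the 145 without (log2 ratio 0.38, 95% CI 0.16 to 0.58), under 2-fold apart. Their Shh level was 1631 CPM, against 976 CPM without Lmx1b, again a description. Depth was 9336 UMIs at the median and 11990 at the mean with Lmx1b, against 9455 and 14470 without. The 16 cells with Nkx2-9, a homeobox gene of the ventral neural tube, had 568 CPM of Sox2, against 565 CPM in the others (log2 ratio 0.01, 95% CI -0.25 to 0.26). Shh was at 619 CPM with Nkx2-9 and 1122 CPM without.

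Compared with the 7466 other kept cells at E10.5, the 199 cells as a whole carried the floor plate and cilium genes of their main set. Of 16266 measured genes 672 (4.13%) were at least 4-fold higher and 234 (1.44%) lower. In the cilium list 16 of 18 genes were higher and 0 lower (median 3.19), led by Fam183b with 270.3 CPM in the 199 cells and 1.31 CPM in the others (log2 ratio 7.69, 95% CI 7.46 to 7.93). In the floor plate list 12 of 16 were higher (median 2.80), with Ferd3l, a basic helix-loop-helix factor of the floor plate, at 16.7 CPM in the 199 cells and 0.0372 CPM in the others. Slit1, an axon repellent, had 83.8 CPM in the 199 cells and 1.68 CPM in the others. Without the deep cells the counts were 16 of 18 and 11 of 16, beside 790 (4.88%) genes higher and 424 (2.62%) lower of 16173.

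Taken set by set against the other cells, T- Epcam- cells had 756 (4.65%) of 16249 genes at least 4-fold higher and 463 (2.85%) lower, with 11 of 16 floor plate genes and 16 of 18 cilium genes higher and 0 of 16 sheath genes. T+ cells had 796 (4.92%) of 16191 genes higher and 198 (1.22%) lower, with 12 of 16 sheath genes, 2 of 16 cilium genes and 1 of 15 floor plate genes higher. T+ Foxa2- cells had 554 (3.42%) of 16189 genes higher and 184 (1.14%) lower, with 13 of 16 sheath genes higher and 0 of the cilium and floor plate genes. All of these comparisons share most of the other cells.

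Genes of Hedgehog reception were also compared between the 199 cells, which were chosen for the ligand, and the other cells. Of 12 reception and target genes 0 were at least 4-fold higher in the 199 cells and 1 was lower. Over all measured genes the shares were 4.13% and 1.44%, so counts this small among 12 genes do not set the list apart. Without the deep cells 1 was higher, Cdon, and 1 lower. Ptch1 had 60.2 CPM in the 199 cells and 62.5 CPM in the others. Hhip, an inhibitor and target, had 0.894 CPM in the 199 cells and 8.33 CPM in the others, Gli1 4.17 and 9.41 CPM, and the co-receptor Gas1 75.7 and 189 CPM. A second co-receptor, Cdon, had 19.97 CPM in the 199 cells and 5.36 CPM in the others. Leading genes that no list held included the neuronal secreted protein gene Lgi3 (50.1 CPM in the 199 cells and 0.320 CPM in the others). Metrnl (210 and 4.43 CPM) and Enpp2, which encodes autotaxin (221 and 4.71 CPM), were also on no list. Sox21, on the fixed oesophagus and stomach list, had 60.2 and 1.05 CPM.

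The 4 T+ Epcam+ cells had 53482, 28479, 18876 and 14942 UMIs. They held 37, 29, 6 and 2 UMIs of T, 6, 1, 3 and 4 of Epcam, and 50, 39, 19 and 3 of Krt8, in that order. The second cell, with 1 Epcam UMI, had 0 UMIs of Wfdc2, Lhx1, Pax2 and Sim1. The other 3 held 26, 12 and 6 UMIs of Wfdc2, an epithelial secreted protein gene, and 10, 4 and 4 UMIs of Lhx1, 8, 3 and 1 of Pax2 and 8, 3 and 3 of Sim1.

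Lhx1 and Pax2 are on the fixed nephric list, whose summed level was 412 CPM in T+ Epcam+ cells (6 of 8 genes with a UMI) and 31.9 CPM in T+ cells (4 of 8). The part of nephric RNA or of a second cell in these barcodes was not tested. Of 5142 genes 27 (0.525%) were at least 4-fold higher in T+ Epcam+ cells than in T+ cells and 164 (3.19%) lower. Without the deep cells these counts were 32 (0.799%) and 64 (1.6%) of 4007. The G2 and M phase list summed to 6497 CPM in T+ Epcam+ cells and 2091 CPM in T+ cells, with 2 of its 15 genes at least 4-fold higher (3 without the deep cells).

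The 9 Epcam+ cells at E10.5 were mixed. In order of depth (99453, 99129, 96084, 80270, 22738, 13934, 9832, 7733 and 3457 UMIs) they held 3 to 16 Epcam UMIs in the first 6 and 1 in each of the last 3. The fifth and sixth cells held 10 and 21 UMIs of Krt8, 30 and 37 of Krt18, 10 and 6 of the tight-junction gene Cldn6, 41 and 27 of Ttr, 6 and 3 of Hhex and 1 each of Pdx1, the pancreas and duodenum factor. The last 3 cells had 0 Krt8 UMIs and held 4, 2 and 2 UMIs of Sox2.

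The 4 deep Epcam+ cells carried genes of several other types, with 134 and 92 Acta2 UMIs in the cells of 99129 and 96084 UMIs and 17 Cdh5 UMIs in the cell of 99453 UMIs. Regional endoderm genes varied over the 9 cells. Nkx2-1, of airway and thyroid, was in 0 of 9 cells, Pdx1 in 2, and Mnx1, Hnf4a and Cdx2, of intestine, in 1 each. Sox2, also a gene of neural progenitors, was in 9 of 9, and Sox9 and Hhex were in 5 each. Ttr and Hhex are also hepatoblast markers, and that list summed to 601 CPM in the Epcam+ cells (107 to 2475 per cell), against 276 CPM in T+ cells, while the fifth cell had 19 Afp UMIs, 1 below the limit. The part of hepatoblasts was not tested.

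Between T+ and Epcam+ cells 138 of 6538 genes (2.11%) were at least 4-fold higher and 65 (0.994%) lower in T+ cells. The sheath list had 8 of 10 genes higher (5 of 9 without the deep cells, where 110 of 3566 genes, 3.08%, were higher and 38, 1.07%, lower), and Car3 had 5131 CPM in T+ cells and 45.7 CPM in Epcam+ cells (log2 ratio 6.81). Between T- Epcam- and Epcam+ cells 327 of 9640 genes (3.39%) were higher and 96 (0.996%) lower, against 87 (0.965%) and 131 (1.45%) of 9013 without the deep cells. The floor plate list had 6 of 10 genes higher in T- Epcam- cells than in Epcam+ cells (median 2.29), and 1 of 10 (median 0.17) without the deep cells.

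The cells were far rarer at E11.5. They made up 0.0337% of kept cells at E11.5 (95% CI 0.00695 to 0.0984) and 2.60% at E10.5 (2.25 to 2.98), a share 77.1-fold lower at E11.5 (26.0 to 376.9). T itself had 12 UMIs over the other 8904 cells at E11.5, in 7 cells. Stage and the piece of tissue taken cannot be told apart with 1 library each.

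The 3 E11.5 cells had 41803, 40895 and 21157 UMIs and all held Epcam, Krt8, Krt18 and Cldn6. They held 18, 22 and 9 UMIs of Shh, 13, 7 and 8 of Foxa2, 78, 44 and 17 of Epcam and 42, 31 and 17 of Sox2, in that order. Pitx1, a homeobox gene of oral and hindlimb tissue, had 43, 42 and 17 UMIs, or 1012 CPM, against 0.482 CPM in the 8904 other cells (log2 ratio 11.04, 95% CI 10.585 to 11.498). Mnx1 had 3, 6 and 5 UMIs, Pax9, a factor of pharyngeal pouches, 12, 3 and 0, and Trp63, of stratifying epithelia, 4, 2 and 0.

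Of 17060 measured genes 760 (4.45%) were at least 4-fold higher and 234 (1.37%) lower in these 3 cells than in the others. In the epithelial junction and keratin list 16 of 23 genes were higher and 0 lower (median 4.47). Cldn6, of that list, had 228 CPM in the 3 cells and 2.61 CPM in the others. In the oesophagus and stomach list 4 of 9 measured genes were higher and 0 lower, among them Krt15 at 69.5 and 0.592 CPM. Sfn, which encodes an epithelial 14-3-3 protein, had 258 CPM in the 3 cells and 1.05 CPM in the others, and Irx5 119 and 0.667 CPM. Nkx2-1, Pdx1, Cdx2 and Hnf4a had 0 UMIs in all 3 cells. Hox group 4 stood at 189 CPM, and groups 9 to 13 at 0, with an upper limit of 36.6 CPM.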

How the data were processed

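Single-cell RNA sequencing was done on 1 library per stage. The deposited values were whole-number UMI counts per gene and barcode, made by the authors with Cell Ranger 5.0.0 on mm10 (GRCm38), per the submitters' processing notes; filters before deposit are not given in the sources used here, and the lowest barcode total was 500 UMIs. Of 31053 gene identifiers, 30934 were matched to the reference annotation.

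Counts were summed over the cells of a set and given as CPM over genes other than haemoglobin and mitochondrial genes. A gene was measured with at least 20 UMIs over both sides, and was counted at a 4-fold difference, the 6 genes of the rule left out. Intervals at 95% were exact Poisson for CPM, Clopper-Pearson for shares and exact conditional for ratios, and these cover counting error only. A set at 0 UMIs was read at a floor of 3 counts. The ratio code was tested on simulated data, and the share code was not.

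The cells, the 34 gene lists and the rule for named genes were chosen with earlier results of these data known. Named genes had at least 50 CPM on a side and at least 50 UMIs over both, and were the 12 each way (12 higher only against other cells) whose interval bound lay farthest from 0, plus members of the lists. Genes named for single cells of the small sets were chosen after their values were seen. Some genes picked by this rule are not reported here.

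Scrublet, run through scanpy 1.11.5 on barcodes with at least 1000 UMIs, called 0 of 9756 cells at E11.5 and 0 of 8705 at E10.5 at its automatic threshold, so it did not work here and no cell was removed. Leaving out the highest 8% of scores is an alternative, and the alternatives also varied the filters, thresholds, scaling, weighting and depth. Within-set comparison of the stages was not made, since no set had 20 cells in each library. Python 3.11.15, numpy 2.4.6, scipy 1.17.1, pandas 2.3.3 and matplotlib 3.10.9 were used.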

Additional observations from a re-analysis of the deposited data

How the results depend on the processing

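No paired analysis was possible because each stage has 1 library. The comparison of E11.5 with E10.5 within a set and its alternatives were not run, since no set had 20 cells in each library. Leaving out cells above the 99th percentile of UMIs was chosen after seeing the data. Where a value below moved, the cause was not tested, apart from the number of genes or cells that a setting itself changes.

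The cells made up 2.60% of kept E10.5 cells, and 2.01% with at most 5% mitochondrial UMIs, 2.17% with at least 2 Foxa2 UMIs and 1.96% after thinning to 5000 UMIs before the rule. T- Epcam- cells were 86.9% of them, and 91.6% with at least 2 Foxa2 UMIs and 97.8% after thinning. For T- Epcam- over T+ cells (420 genes higher, 224 lower), a minimum of 100 UMIs gave 158 and 47, a 2-fold limit gave 1262 and 671, and a minimum of 1 UMI gave 983 lower. For T- Epcam- over Epcam+ cells (327 and 96), the mean over cells gave 545 and 204, a minimum of 100 UMIs 104 and 10, and a 2-fold limit 1105 and 529. A minimum of 1 UMI gave 809 lower, leaving out high Scrublet scores gave 114 higher and leaving out the deep cells 87 higher. For T+ over Epcam+ cells (138 and 65), the mean over cells gave 212 and 162, a minimum of 100 UMIs 23 and 7, a minimum of 1 UMI 342 and 330, a 2-fold limit 444 and 381, and leaving out the deep cells 38 lower. For all cells over the other cells at E10.5 (672 and 234), a minimum of 100 UMIs gave 385 higher, a minimum of 1 UMI 1284 higher and a 2-fold limit 1822 and 1026. The mean over cells gave 1064 lower, leaving out high Scrublet scores 446 lower and leaving out the deep cells 424 lower. Epcam+ cells with Nkx2-1, Pdx1 or Cdx2 numbered 2, and 1 after thinning and 1 with at least 4 Shh UMIs. The log2 ratio of Hoxb9, T- Epcam- over T+ cells, was 3.15, and 4.17 after thinning and 4.84 without the deep cells.

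Among the values recomputed under every alternative that could be run, direction turned in 13, all in comparisons with the 9 Epcam+ cells. For T+ over Epcam+ cells, the median of the epithelial list was 0.33, and -0.42 with the mean over cells, -0.36 with a minimum of 1 UMI and -0.43 without high Scrublet scores. The Hox median was -0.95, and 0.31 with a minimum of 100 UMIs and 0.61 without the deep cells. The floor plate median was -0.30, and 1.71 without the deep cells, and the cilium median was -0.69, and 0.21 with detection at 2 UMIs. Tagln had a log2 ratio of -3.78, and 1.91 without high Scrublet scores and 1.09 without the deep cells. Lgals1 had -1.89, and 1.36 and 0.87 under the same settings. For T- Epcam- over Epcam+ cells without the deep cells, Gng11 had 0.54 and Actc1 1.85, against -3.26 and -2.98 with them. For T- Epcam- over T+ cells, leaving out the deep cells also turned Col4a1 (-1.68, and 2.17 without them) and the medians of 3 lists of other cell types with at most 4 measured genes. These were mesothelium (-1.93 and 2.42), hepatoblast (0.03 and -1.08) and nephric (-0.33 and 0.42). Scaling to all genes or to a median ratio of 0 turned none of the 13. Setting the median of all genes to 0 shifts log2 ratios of T- Epcam- over T+ cells by 0.12. With 11 to 13 T+ and 9 Epcam+ cells, genes under 20 UMIs over both sides could not be described at this depth.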

Other observations

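Several further lists were compared between T- Epcam- and T+ cells at E10.5. In glycolysis, S phase and G2 and M phase, 0 of 14, 0 of 16 and 0 of 15 measured genes were at least 4-fold apart in either direction, with medians of -0.18, 0.11 and 0.49. Over all measured genes 4.29% were higher and 2.29% lower in T- Epcam- cells, so counts of 0 do not set these lists apart. In the dissociation response 3 of 13 measured genes were at least 4-fold lower in T- Epcam- cells. Junb had 23.1 CPM in T- Epcam- cells and 139 CPM in T+ cells, and Nr4a1 had 5.67 and 45.0 CPM. Ier3 had 1.74 CPM in T- Epcam- cells and 116 CPM in T+ cells, where 1 cell held 93.5% of its UMIs.

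In the basement membrane list 4 of 13 measured genes were at least 4-fold lower in T- Epcam- cells (2 without the deep cells). Frem2, which encodes an extracellular matrix protein of the Fras1 complex, had 6.54 CPM in T- Epcam- cells and 52.5 CPM in T+ cells (log2 ratio -3.01, 95% CI -4.02 to -2.05). Col4a1, a basement membrane collagen, had a log2 ratio of -1.68, with 91.5% of its UMIs in T+ cells from 1 cell, and of 2.17 without the deep cells.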
